A study of Bos taurus with 2 samples.

Results

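The cytosolic ribosomal proteins are the protein components of the large (RPL) and small (RPS) subunits of the ribosome outside mitochondria. Their genes were taken as all noncontrol probes whose RefSeq symbol starts with RPL or RPS followed by a digit, or is RPLP0, RPLP1, RPLP2 or RPSA, with the RPS6K kinases left out. The rule uses symbols and no measured value, but it was chosen with earlier results of these data known. It gave 78 genes of 23161 with a value, read by 249 probes of 43639. Of these genes, 45 carry names of the large subunit and 33 of the small subunit. RefSeq lists 87 bovine symbols of this form, and the other 9 (RPL7L1, RPL10L, RPL15P, RPL21, RPL22, RPL26L1, RPL34, RPS14 and RPS27P) were matched by no probe. All 78 genes were well above background in both cows, so that none was lost to a filter on dim probes. Of the 43639 probes only 20587 have a RefSeq symbol, which is fewer than the 23161 genes. The genes of the whole array therefore include transcripts without a symbol, whereas every member has a symbol. Counts and shares of all genes given below are over this mix.

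The study compared muzzle tissue of HanWoo, the native Korean cattle, between 1 cow with a yellow (light) muzzle and 1 cow with a black (dark) muzzle. Both were females of 30 months from 1 farm, picked by the study to represent their colour, and the front part of the muzzle was frozen after slaughter. Total RNA of each cow was labelled with Cy3 and read alone on a 1-colour Agilent bovine array, and the 2 arrays lay on the same slide. With 1 array per group there is no replicate check, no test was made, and every difference given here is one between 2 animals. Muscle, gland, skin and pigment cells share such a piece of tissue, and in bulk RNA fewer cells of a type and less RNA per cell cannot be told apart.

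Ribosomes translate mRNA into protein, and the large subunit joins the amino acids while the small subunit reads the codons. Each ribosome holds a single copy of nearly all of its proteins, the exception being the stalk proteins RPLP1 and RPLP2, which bind RPLP0 in pairs. The mRNAs of these proteins are among the most abundant in a growing cell and begin with a run of pyrimidines, through which the mTOR pathway controls their translation together. A few ribosomal proteins have a paralog of narrower use. RPL3L replaces RPL3 in ribosomes of skeletal and heart muscle. In mice, mutations of the small subunit genes Rps19 and Rps20 darken the skin, and a mutation of Rpl24 gives a white belly spot, which links this gene family to pigment.

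Levels are log2 processed intensities relative to the 75th percentile of each array, which was an intensity of 1144 on the light-muzzle array and 1137 on the dark-muzzle array. Of the noncontrol spots, 78.8% and 81.9% were well above background, and 0 were saturated. A ratio is the level of the dark-muzzle cow less that of the light-muzzle cow, averaged over the probes of a gene. On this scale the median ratio of all genes was 0.017. Of 8 spike-in RNAs detected on each array 7 had ratios below 0, with a median of -0.22 and a range of -0.38 to 0.019.

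The ribosomal protein genes differed little between the 2 muzzles, with 1 exception. The median log2 ratio of the 78 genes was -0.054, and 77 of them lay between -0.31 (RPL36, a protein of the large subunit) and 0.27 (RPS26, a protein of the small subunit). The exception was RPL3L, whose log2 ratio of 3.34 is 10.1-fold more in the dark muzzle. It was the only member at least 2-fold higher, 1 of 78, where 9.34% of all genes were at least 2-fold higher. No member was at least 2-fold lower, 0 of 78, where 7.64% of all genes were. At 1.5-fold the members' counts were the same, 1 higher and 0 lower, against 18.8% and 15.8% of all genes.

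**Figure D1:**
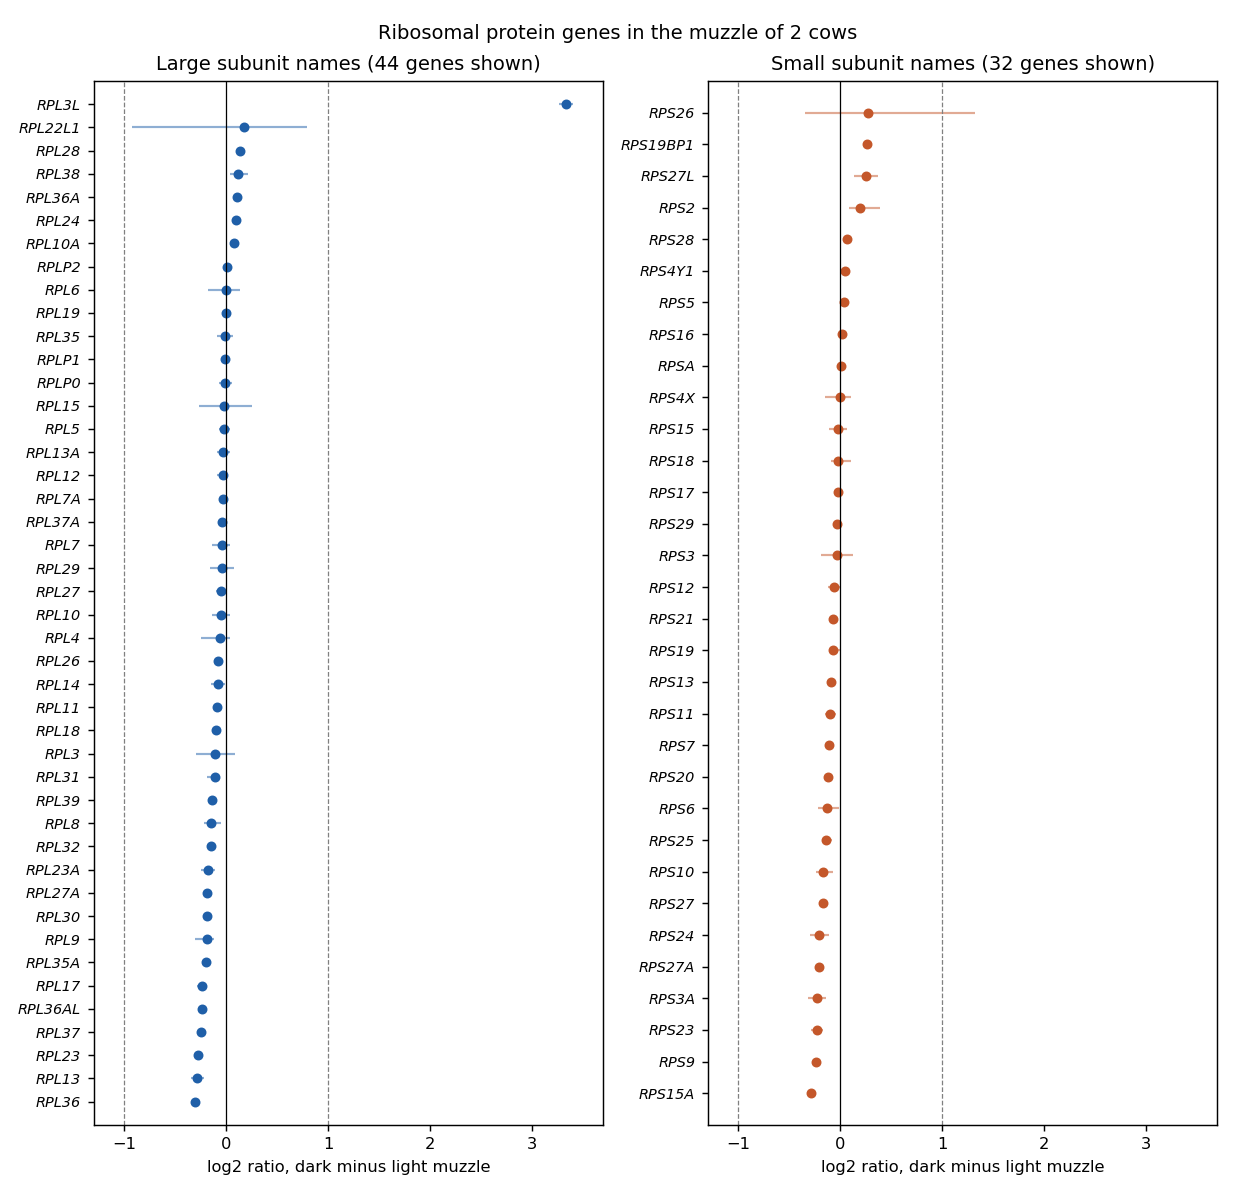
Log2 ratio (dark minus light muzzle, x axis) of each ribosomal protein gene, ordered within the large subunit (left, 44 genes shown) and the small subunit (right, 32 genes shown); points are gene values, lines span the lowest to the highest probe, and dashed lines mark 2-fold. RPL3L stands at 3.34, every other gene value shown lies between -0.31 and 0.27, and only RPL22L1 and RPS26 have probes that lie at least 1 log2 unit apart.

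The narrow spread was also seen against genes of similar brightness. Of 965 genes with a mean level of at least 3, 15.4% were 2-fold or more higher in the dark muzzle and 6.53% were 2-fold or more lower. The 74 members among them lay between -0.31 and 0.27, so that 0 of 74 passed 2-fold. A tighter limit, a difference of more than 25% between the brighter and the dimmer cow, was set after the values were seen. It was passed by 57.1% of all genes, by 58.8% of the genes with a mean level of at least 3 and by 1 of the 78 members, RPL3L. Of the other 77 members, 6 passed this limit after quantile normalization, 4 after loess normalization, 9 after spike-in scaling, 4 by the brightest probe, and 1 each with the 50th percentile or the median over probes. With ratios taken relative to the median of all genes, these counts were 6, 3, 1, 2, 1 and 1. The count was then 1 as measured, 2 after normexp background correction and 4 with no filter on dim probes. The share of all genes past this limit was not counted under the alternatives. At a mean level of at least 6, a limit also chosen afterwards, the ratios of 56 members had an SD of 0.11 and those of 108 other genes an SD of 0.91. The other genes at this level ranged from -2.72 to 3.03 and the members from -0.31 to 0.19.

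**Figure D2:**
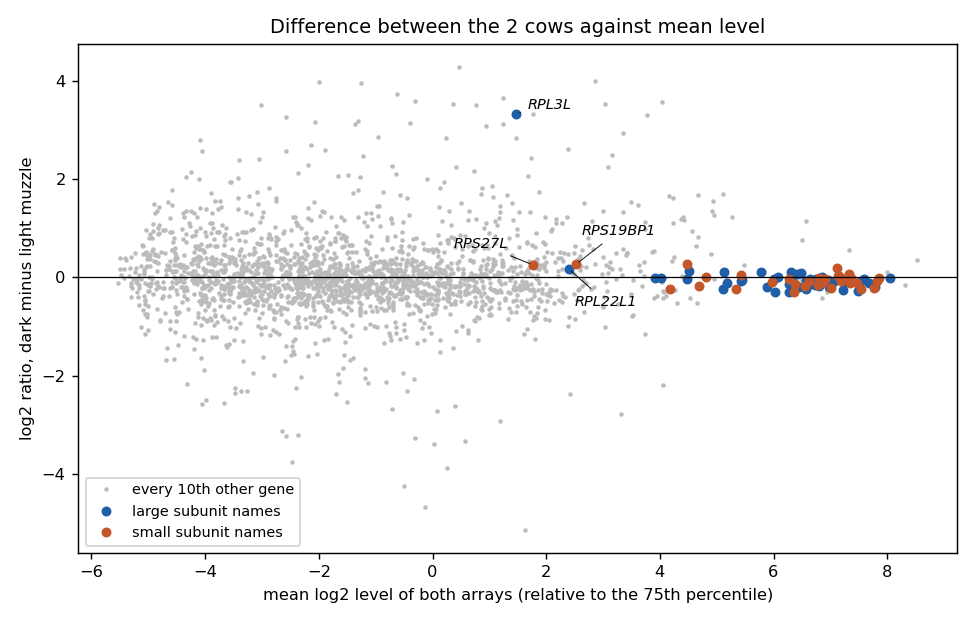
Log2 ratio (dark minus light muzzle, y axis) against the mean log2 level of both arrays (x axis) for the ribosomal protein genes (coloured by subunit name) and every 10th other gene measured on both arrays (grey). The members form a flat band at the bright end of the array, whereas RPL3L, at a mean level of 1.48, lies 3.34 above 0.

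The members' median was below 0 as measured and under every alternative but spike-in scaling. As measured, 58 of the 77 genes other than RPL3L had ratios below 0, where 11311 of all 23161 genes did. Under the other alternatives, spike-in scaling apart, between 56 and 70 of the 77 were below 0. With the arrays scaled on the spike-in transcripts, an alternative added after the data had been seen, the median of all genes moved to 0.24 and 10 of the 77 were below 0. How many of all genes were then below 0 was not counted. Relative to the median of all genes, the members' median was -0.071 as measured. It was -0.072 after spike-in scaling, which shifts measured ratios alike and so leaves this difference nearly unchanged by construction. Among the alternatives it ran from -0.10 (quantile normalization) to -0.061 (brightest probe). The subunits had medians of -0.053 (large) and -0.061 (small).

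Most genes were read by several probes, and these agreed closely. For 68 genes with at least 2 probes the SD between the probes of a gene had a median of 0.058, against 0.18 over 7661 genes of the whole array and 0.092 over 359 genes with a mean level of at least 3. In 34 of the 68 genes every probe was below 0, in 11 every probe was above 0, and in 23 the probes were mixed. The same 3 counts were 2465, 2881 and 2315 over the 7661 genes of the whole array. They were 102, 193 and 64 over the 359 genes with a mean level of at least 3. Without RPL3L, RPS26 and RPL22L1, which were left out after their values were seen, the gene values had an SD of 0.12 over 65 genes, which is larger than the probes' median SD of 0.057. Feature Extraction itself gives an error for each spot, and carried into a log2 ratio it had a median of 0.20 for the members' probes. This error was 0.10 for the probes spotted 4 times and 0.20 for the rest, so it hardly varied between probes. Of the 249 probes, 66 differed from 0 by more than this error and 9 by more than 2 errors. Those 9 belonged to RPL22L1 (4), RPL3L (2), RPS26 (2) and RPL36AL (1). The same counts were not made over the other probes of the array, so these shares cannot be compared with theirs. Probes of a gene are not replicates of a cow, and their agreement says nothing of the spread between cows.

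RPL3L, the muscle paralog of RPL3, was read by 2 probes. One gave a processed intensity of 1191 on the light-muzzle array and 11418 on the dark-muzzle array, and the other gave 841 and 8835. Both probes were thus far brighter in the dark-muzzle cow, with log2 ratios of 3.27 and 3.40. The mean levels were -0.19 and 3.14. RPL3 itself, which sits at the peptidyl transferase centre of the large subunit, had levels of 5.23 and 5.12 and a ratio of -0.11 over 6 probes, which ranged from -0.29 to 0.089. The ratio of RPL3L therefore exceeded that of RPL3 by 3.44 log2 units.

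Markers of skeletal muscle moved with RPL3L. Of 11 listed muscle genes 10 were on the array, and all 10 passed 2-fold toward the dark muzzle, with a median log2 ratio of 3.01 and a range of 2.24 (ACTA1, skeletal alpha-actin) to 3.50 (MYH1, a myosin heavy chain of fast fibres). All 10 were well above background in both cows, and their summed intensity over 37 probes came to 744514 on the light-muzzle and 4299050 on the dark-muzzle array, a ratio of 5.77. The value of RPL3L lay within the range of these markers. The part of muscle in the RPL3L difference was not tested.

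**Figure D3:**
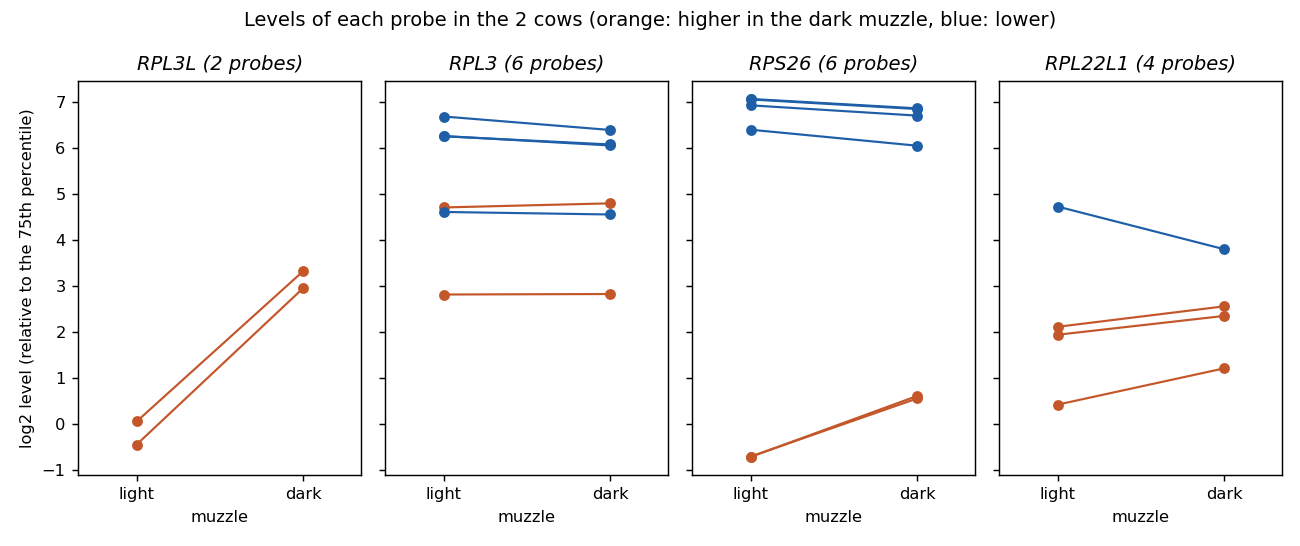
Log2 level relative to the 75th percentile (y axis) of every probe of RPL3L, RPL3, RPS26 and RPL22L1 in the light-muzzle and the dark-muzzle cow (x axis), each line being 1 probe. Both probes of RPL3L are higher in the dark-muzzle cow by 3.27 and 3.40, whereas RPS26 and RPL22L1 have bright probes that are lower and dim probes that are higher there.

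RPS26, a protein near the mRNA exit of the small subunit, had the highest gene value after RPL3L, but its 6 probes were split. The 4 bright probes went from 6.40 to 7.07 in the light muzzle and from 6.06 to 6.87 in the dark muzzle, with ratios of -0.35 to -0.20. The other 2 probes, of the same accession, went from -0.71 and -0.70 to 0.61 and 0.56, with ratios of 1.32 and 1.26. The mean of 0.27 describes neither set of probes, and the sign of RPS26 turned to -0.20 by its brightest probe and to -0.21 by the median over its probes.

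RPL22L1, a paralog of the RNA-binding protein RPL22, was split as well. Its brightest probe had levels of 4.73 and 3.80 in the light-muzzle and the dark-muzzle cow, a ratio of -0.93. The 3 other probes were higher in the dark-muzzle cow, with ratios of 0.41, 0.44 and 0.79. Their mean with the brightest probe gave RPL22L1 a gene value of 0.18. RPS26 and RPL22L1 were the only members whose probes lay 1 log2 unit or more apart, 2 of 68, where 793 of 7661 genes of the whole array had such probes. Ribosomal protein genes have many near-identical processed copies in mammalian genomes, and which transcripts the probes bind was not examined here.

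Of the other paralogs, RPS27L, a gene known as a target of p53, had levels of 1.64 and 1.90 and a ratio of 0.25, from probes at 0.14 and 0.37. RPS27 had levels of 4.77 and 4.60 and a ratio of -0.17 over 3 probes, of which none was above 0. The paralog and the gene thus went apart by 0.43. The level of RPS27 averages 1 dim probe, at a mean level of 0.80, and 2 bright probes at 6.58 and 6.67. The dim probe carries another accession than the 2 bright ones. For RPS27L the brighter probe, at a mean level of 3.08, had the smaller ratio, 0.14. RPL36AL had a ratio of -0.24, from 1 probe spotted 4 times with spots between -0.30 and -0.18. RPL36A had one of 0.10, from probes at 0.088 and 0.12, and was below 0, at -0.078, after quantile normalization. The copies of RPS4 hardly differed, with ratios of 0.044 for RPS4Y1 and -0.00015 for RPS4X. Over the alternatives RPS4Y1 ranged from -0.19 to 0.27 and RPS4X from -0.071 to 0.22.

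RPS19BP1 met the naming rule but is a binding partner of RPS19 and no ribosomal protein. It was read by 1 probe, with levels of 2.39 and 2.65 and a ratio of 0.27.

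The stalk proteins, which recruit the translation factors to the large subunit, were among the most even genes. RPLP1, the brightest member, had levels of 8.06 and 8.05 in the light-muzzle and the dark-muzzle cow. RPLP0, the base of the stalk, had levels of 6.33 and 6.31, and RPLP2 had 6.84 and 6.85. Their ratios were -0.014, -0.015 and 0.010, and all 11 of their probes lay between -0.071 and 0.054. RPS12 (7.85 and 7.79), RPL27A (7.88 and 7.69) and RPS27A (7.87 and 7.66) were also among the brightest members, with ratios of -0.061, -0.19 and -0.21. RPS27A is made as a fusion with ubiquitin. Brightness also reflects the probe: the 3 probes of RPL37A differed by 7.23 in mean level and those of RPS23 by 7.56, so levels of different genes were not compared as amounts of mRNA. These 2 genes were named after their values were seen.

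RPL5 and RPL11, which carry the 5S rRNA into the large subunit and can bind MDM2, had ratios of -0.023 over 5 probes and -0.089 from 1 probe. RPL10, which joins the large subunit late in its assembly, had levels of 6.98 and 6.93 and a ratio of -0.054. RPL7 had a ratio of -0.039 over 7 probes, and RPL26 one of -0.076 from 1 probe. RPL39, which lines the exit tunnel for the growing peptide, had one of -0.14, from probes at -0.17 and -0.11. None of these genes differed by more than 25%.

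The lowest values of the large subunit were small but even across probes. RPL36 had levels of 6.42 and 6.11 in the light-muzzle and the dark-muzzle cow, and its 2 probes had ratios of -0.32 and -0.29. RPL13 had levels of 6.18 and 5.89, and its 5 probes lay between -0.35 and -0.22. RPL23 had levels of 7.62 and 7.34, with both probes at -0.28. RPL37 had levels of 7.34 and 7.09, with 3 probes between -0.27 and -0.21. RPL17, at the exit tunnel, had levels of 6.68 and 6.45, and its 7 probes lay between -0.29 and -0.21. No probe of these 5 genes was above 0, and the gene values stayed below 0 under every scaling tried. Over the alternatives, however, RPL17 reached -0.010 and RPL37 reached -0.025. The 5 genes were picked as low values of these same data, so this agreement is no independent support.

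In the small subunit, RPS15A had the lowest value, with levels of 6.51 and 6.22 and 3 probes between -0.31 and -0.28. RPS9, a protein of early assembly, had levels of 5.46 and 5.22, with both probes at -0.24. At the other end, RPS2, which lines the entry channel for mRNA, had levels of 7.02 and 7.21 and a ratio of 0.19. Its 5 probes lay between 0.084 and 0.38. RPS2 was above 0 under every scaling tried, but it was picked for its high value in these same data. RPS3, its neighbour at the channel, had a ratio of -0.037 over 5 probes between -0.19 and 0.12. RPSA, also known as the laminin receptor, had a level of 4.81 in both cows and a ratio of 0.0012 from 1 probe. Over the alternatives the ratio of RPSA ranged from -0.28 to 0.23.

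Among the higher values of the large subunit was that of RPL28, which had levels of 4.45 and 4.59 and a ratio of 0.14 from 1 probe. It was below 0 after quantile normalization, at -0.15. In all, 13 of the 77 genes other than RPL3L lay below -0.2, 3 lay above 0.2 and 40 lay within 0.1 of 0. The 3 above 0.2 were RPS26, whose probes were split, RPS19BP1, which is no ribosomal protein, and the paralog RPS27L. These counts were not made over all genes, whose lower and upper quartiles were -0.36 and 0.43.

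The genes whose mouse counterparts change skin colour differed by less than 25%. RPS19 had levels of 7.23 and 7.15 in the light-muzzle and the dark-muzzle cow and a ratio of -0.076, with 5 probes between -0.10 and -0.0035. RPS20 had levels of 7.52 and 7.41 and a ratio of -0.12, from probes at -0.16 and -0.071. RPL24 had levels of 6.43 and 6.53 and a ratio of 0.096, with 3 probes between 0.065 and 0.15, and was at -0.018 after quantile normalization. Spike-in scaling put RPS19 and RPS20 above 0, at 0.15 and 0.11. RPS20 and RPL24 were named after their values were seen. RPS6, the protein that S6 kinases phosphorylate, had levels of 6.45 and 6.32 and a ratio of -0.13 over 7 probes, of which none was above 0.

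Several members are in common use as reference genes for PCR. RPLP0, RPL13A, RPS18 and RPS9 had ratios of -0.015, -0.027, -0.020 and -0.24. Across the alternatives RPLP0 ranged from -0.11 to 0.21, RPL13A from -0.16 to 0.20 and RPS18 from -0.078 to 0.20. RPS9 ranged from -0.47 to -0.017.

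The naming rule misses a few ribosomal proteins. FAU, the precursor of RPS30, had levels of 7.11 and 6.80 and a ratio of -0.31 over 4 probes between -0.42 and -0.23. RACK1, a scaffold protein on the small subunit, was read by 1 probe near the limit of detection, with levels of -5.59 and -5.20 where the lowest level well above background was -5.78 in the light-muzzle cow.

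Mitochondrial ribosomal proteins build the separate ribosome inside mitochondria, and most of their genes were higher in the dark muzzle. Of 78 listed genes 72 had a value, and 63 of them were above 0, where 11850 of all 23161 genes were. The median log2 ratio of the list was 0.45, which ranged from 0.39 to 0.67 over the 11 alternatives. At least 2-fold higher were 6 of the 72, against 9.34% of all genes, and 0 were at least 2-fold lower. The number 2-fold higher was 2 after quantile normalization (with 1 lower), 3 after normexp correction and 10 after spike-in scaling. At least 1.5-fold higher were 24 of the 72, against 18.8% of all genes, and 1 was at least 1.5-fold lower. The highest was MRPL1, with levels of -2.03 and -0.72 and a ratio of 1.30, and the lowest was MRPL2, with levels of 3.03 and 2.10 and a ratio of -0.93. The members' median of -0.054 lay 0.071 below that of all genes, and that of the mitochondrial list lay above it. The difference between the lists was not tested.

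**Figure D4:**
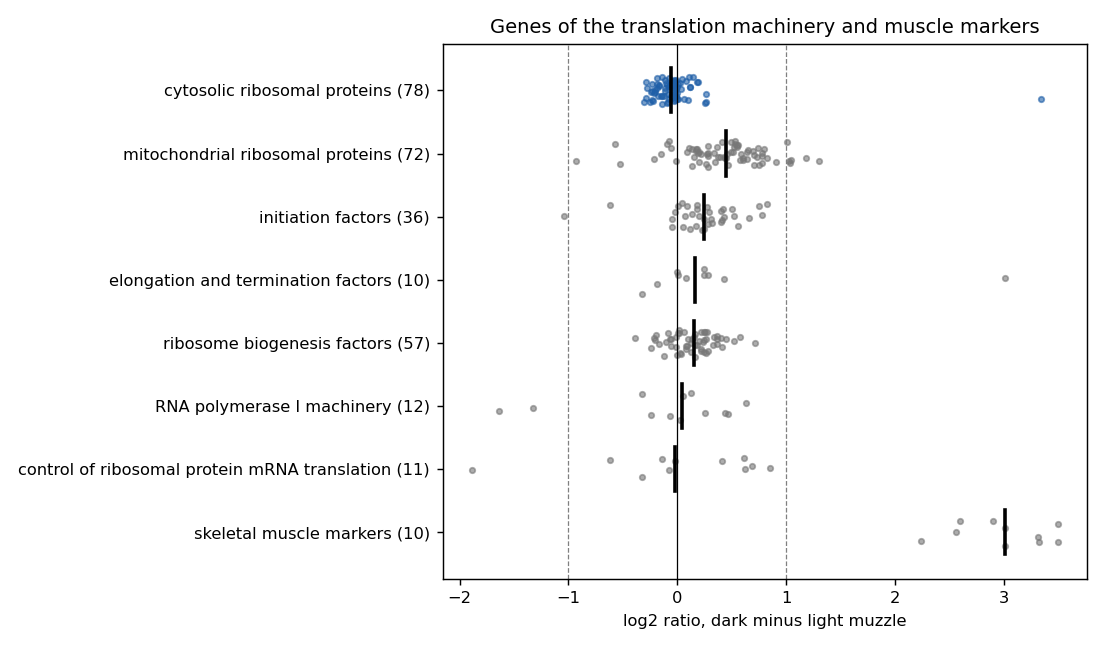
Log2 ratio (dark minus light muzzle, x axis) of the genes of each list (1 point per gene, black bars are medians, dashed lines mark 2-fold, and the number of genes stands after each name). The cytosolic ribosomal proteins have a median of -0.054, the mitochondrial ribosomal proteins 0.45 and the skeletal muscle markers 3.01, and RPL3L and EEF1A2 lie among the values of the muscle markers.

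Among 10 elongation and termination factors with a value, the median log2 ratio was 0.16, and 1 gene passed 1.5-fold. This was EEF1A2, the form of elongation factor 1 alpha known from muscle and nerve, which had levels of -3.86 and -0.85 and a ratio of 3.01 (8.06-fold), with 3 probes between 2.72 and 3.30. Normexp background correction gave it a ratio of 2.26. The common form, EEF1A1, had levels of 6.17 and 5.85 and a ratio of -0.32, and all of its 9 probes lay between -0.36 and -0.24. For this pair as for RPL3L and RPL3, the muscle form was far higher in the dark muzzle and the common form was below 0. The probes of RPL3 lay on both sides of 0, from -0.29 to 0.089, whereas no EEF1A1 probe was above 0. The part of muscle in these differences was not tested. After spike-in scaling RPL3 was at 0.12 and EEF1A1 at -0.096.

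Of 36 initiation factors, 31 were above 0, where 11850 of all 23161 genes were. The median log2 ratio of these factors was 0.25. At least 1.5-fold higher were 4 of the 36, against 18.8% of all genes, and at least 1.5-fold lower were 2, against 15.8%. The highest was EIF4E3, a cap-binding protein, at 0.82. The lowest was PABPC1, the poly(A)-binding protein of the cytoplasm, whose levels were 5.42 and 4.38 and whose ratio was -1.04 over 4 probes between -1.41 and -0.85. PABPC1 mRNA carries the same run of pyrimidines at its start as the mRNAs of ribosomal proteins. Over 15 other mRNAs known for this feature the median ratio was 0.12 (-0.023 after quantile normalization), and PABPC1 was the only one past 1.5-fold.

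Of 57 ribosome biogenesis factors, 42 were above 0, where 11850 of all 23161 genes were. The median of these factors was 0.15. At least 1.5-fold higher was 1 of the 57, against 18.8% of all genes, namely UTP11, a protein of the small subunit processome, at 0.71. At least 1.5-fold lower were 0 of the 57, against 15.8% of all genes, the lowest being GNL3L at -0.39. For 12 genes of RNA polymerase I, which transcribes the rRNA precursor, the median was 0.038. The highest was POLR1B at 0.63, and the lowest was POLR1G at -1.64, from probes at -3.51 and 0.23.

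Over 11 genes that control the translation of ribosomal protein mRNAs the median log2 ratio was -0.024, with an SD of 0.79, against 0.90 over all genes. The lowest was EIF4EBP1, the repressor of cap-dependent translation that mTOR inactivates, with levels of 2.78 and 0.90 and a ratio of -1.89, from probes at -2.29 and -1.49. The highest was MAX, the partner of MYC, at 0.85. Over 6 genes of ribosome quality control the median was 0.078, with a range of -0.36 (ANKZF1) to 0.38 (RACK1).

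Markers of the other cell types in the piece differed in both directions. Serous gland markers had a median of -2.90 over 6 genes, with 4 at least 2-fold lower and 1 at least 2-fold higher. Their summed intensity was 434518 in the light muzzle and 32966 in the dark muzzle. Keratinocyte markers went both ways around a median of 0.25 over 5 genes, with KRT10 at 1.57 and LORICRIN at 1.41 past 2-fold, and KRT5 and KRT14 at -0.52 and -0.41. Of 4 melanocyte genes, with a median of 1.52, 3 were at least 2-fold higher and DCT was at -0.52, from 1 probe. With no filter on dim probes all 4 were at least 2-fold higher. Medians were -0.42 for 5 fibroblast genes, -0.055 for 5 leukocyte genes and 0.74 for 4 endothelial genes. Every listed marker on the array was well above background in both cows except TYRP1, which was so in the dark-muzzle cow and enters its median as a lower bound. Their part in the small differences of the ribosomal protein genes was not tested.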

How the data were processed

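Muzzle RNA of 1 light-muzzle and 1 dark-muzzle cow was measured on 1 array each, grouped by the tissue colour in the labels. The deposited scanner tables came from Feature Extraction 10.7.3.1, and their processed signal is a background-subtracted, detrended intensity. A log2 value per probe, also deposited by the authors, lay within 0.01 of the levels computed here for 43628 of 43639 probes on each array and served as an alternative.

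Levels are the log2 of the processed signal less the 75th percentile over noncontrol spots. Control spots and 13 outlier spots per array were dropped, and repeated spots averaged. Gene values are means over probes well above background on both arrays, or else a lower bound. Symbols came from matching accessions to the RefSeq table of ARS-UCD2.0 (20587 probes, 47.2%). Transcripts without a symbol were also counted among all genes. The arrays followed another build, so no coordinate is given. The members and lists were chosen with earlier results of these data known. Named genes were the 8 highest and 8 lowest members, the 5 brightest, paralog pairs, members of known role, members with discordant probes and the extremes of each list. A few genes that this rule or the lists take in are counted but not reported here by name.

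No test or p-value was computed, and the number of arrays limits precision. The counting was tested on simulated data. Quantile, loess (span 0.3) and normexp (offset 50, on the median pixel signal in place of the planned mean) values came from limma 3.58.1 under R 4.3.3. Python 3.11.15 with pandas 2.3.3 and numpy 2.4.6 did the rest.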

Additional observations from a re-analysis of the deposited data

How the results depend on the processing

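The 11 alternatives were quantile and loess normalization, shifts to the 50th percentile or none, normexp background correction, no filter on dim probes, outlier spots kept, the brightest probe of a gene, the median over probes, the deposited log2 table and scaling on spike-ins, the last chosen after seeing the data. RPL3L was the only member at least 2-fold higher, and no member was 2-fold lower, under each of them. The log2 ratio of RPL3L lay between 3.18 (normexp) and 3.56 (spike-in scaling). By the brightest probe, 1 member, RPL22L1, was at least 1.5-fold lower, at -0.93. The median of all members, of the large subunit and of the small subunit was -0.15 each under quantile normalization, and 0.17, 0.17 and 0.16 under spike-in scaling. Quantile normalization moved 26 of the other 39 named members and spike-in scaling 37 by more than the spread between probes. The brightest probe moved 5, and the other alternatives moved none by this measure. The median over probes still took RPS26 to -0.21 and RPL22L1 to 0.43. Those changes lay within the SD between the probes of each gene, 0.80 and 0.76. The cause of the moves was not tested, beyond the uniform shift that spike-in scaling makes by construction. Symbols from a gene name column could not be tried, since no such column was used here. No paired analysis was possible because each group holds 1 cow. With 1 array per group, ratios as small as those of most members cannot be set against the spread between cows.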
